A study of Mus musculus with 38 samples.

Results

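The interleukins are secreted proteins through which leukocytes and tissue cells signal to each other, and the genes examined here are those whose symbol on the array begins with Il and a digit. This symbol rule took in 76 genes, covered by 168 of 45220 features, among 30653 entries and 19087 named genes. Of these 37 were counted as ligands or natural antagonists and 37 as receptor chains, with the soluble binding receptor Il22ra2 placed among the latter by its symbol. The remaining pair, Il18bp and Il4i1, encode a binding protein and an enzyme. The rule used no measured value. A few genes of the family that carry other symbols, such as Ebi3, Osm and Tslp, are described separately as pathway genes.

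Vessels with an outer diameter of 50 to 100 µm were cut by laser from 10 µm lung sections of 76 C57BL/6J mice aged 12 to 18 weeks, with no genetic change in the labels. Normoxic mice (8 animals) breathed an oxygen fraction of 0.21 for 21 days, and hypoxic mice (23 animals) a fraction of 0.10 for the same time. The other mice had the same hypoxia and then returned to normal oxygen for 1 day (11 animals), 3 days (12), 7 days (12) or 14 days (10), so every animal outside the normoxic group had been hypoxic. RNA of 1 animal was labelled with Cy3 and RNA of another with Cy5 on each of 38 arrays, and an array is named here by its Cy3 condition, its Cy5 condition and a number (H, N, N1, N3, N7 and N14). The 8 arrays with normoxic RNA all carried hypoxic RNA in the other channel, with the dyes swapped on 4 of them. Hypoxic RNA was also set against day 1, day 3 and day 7 on 4 arrays each, and against day 14 on 3, always with the hypoxic RNA in Cy3 for the latter.

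Interleukins act through families of shared receptor chains. Interleukin 1 binds Il1r1 together with Il1rap, and is held in check by the antagonist Il1rn and the decoy receptor Il1r2. Interleukin 6 signals through Il6st, which other cytokines of that family share, and interleukins 4 and 13 share Il4ra. In the wall of lung vessels, interleukins 1 and 6 are known from hypertensive remodelling, and type 2 cytokines from inflammation around small arteries. These sentences are background and were not tested here.

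Each value is a log ratio of unstated base, so a fold is given for base 10 and then for base 2. The sign was read as Cy5 over Cy3, the usual convention, which is likely and not settled: a turned sign would reverse each direction below. Whether a spot was bright enough to measure its gene is unknown, since brightness was not used here. In a tissue sample, fewer cells of a type and less RNA per cell cannot be told apart, and a ratio does not show whether a cell type was present. Array SDs ran from 0.0742 to 0.192, and the number of arrays limits the precision. Each channel held RNA of a separate animal, so p-values measure the spread between animals and between arrays together.

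Marker genes of other cell types differed between hypoxia and normoxia as well. Only the alveolar markers were entered in the fit of single genes, as a covariate. All 13 alveolar type 1 and all 13 alveolar type 2 markers were higher in hypoxia than in normoxia, with 6 of each past the threshold and medians of 0.106 and 0.0967. The mean of both lists per array was higher on 8 of 8 arrays, from 0.0486 to 0.156. As a covariate this mean therefore moves with hypoxia, and the fit cannot tell the part of these markers from that of hypoxia. Of 5 measured neutrophil markers 4 were lower (median -0.0775, none past the threshold), of 6 dendritic cell markers 5 were lower (1 past the threshold), and of 6 smooth muscle markers 5 were lower (3 past the threshold). T cell markers were divided, with 3 higher and 4 lower of 7 (median -0.00159).

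The first question was which interleukin genes differ in small lung vessels after 21 days of hypoxia. Il7, a growth factor of lymphocytes, was higher in hypoxia, and Il27, Il25 and Il1r1 were lower. Il27 encodes a subunit of interleukin 27, which acts on T cells, Il25 encodes an epithelial cytokine of type 2 immunity, and Il1r1 encodes the signalling receptor of interleukin 1. In limma these 4 of 76 genes (5.26%) passed an adjusted p of 0.05, against 3.6% of all 30653 entries. The 1 higher gene stands beside a background of 1.35% of entries called higher, and the 3 lower genes beside 2.25% called lower, so that the share of interleukin genes past the threshold was near that of the array as a whole.

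The deposited values of Il7, turned so that a positive value means higher in hypoxia, ran from 0.0214 on array H_N 1 through a median of 0.127 to 0.196 on N_H 4. All 8 lay above 0. The fitted log ratio was 0.127 ± 0.0273 (SE, 8 arrays, adjusted p = 0.00648), a ratio of 1.34-fold on base 10 or 1.09-fold on base 2. The 3 features of Il7 stood at 0.0868, 0.0922 and 0.201, and the last alone passed when every feature was tested on its own. The receptor of interleukin 7, Il7r, stood at -0.0335 ± 0.035 without passing (adjusted p = 0.707).

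Il27 was lower on each of the 8 arrays, from -0.153 on N_H 4 through a median of -0.0796 to -0.0181 on N_H 3. Its fitted value was -0.0853 ± 0.0175 (adjusted p = 0.00429), the smallest p of the 76 genes and 1.22-fold or 1.06-fold in size. Neither of the genes that work with it passed. Ebi3, whose product pairs with that of Il27, stood at -0.0835 ± 0.07 (adjusted p = 0.612), and the receptor Il27ra at -0.0492 ± 0.0281 (adjusted p = 0.389).

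Il25 ran from -0.231 on H_N 1 through a median of -0.0438 to 0.0134 on N_H 2. It was lower on 7 of the 8 arrays, and the next lowest array after H_N 1 stood at -0.104. The fitted value was -0.065 ± 0.0175 (adjusted p = 0.0291), and without array H_N 1 it was -0.0413 ± 0.0153 (adjusted p = 0.141). The chain of its receptor that binds it, Il17rb, stood at 0.011 ± 0.0287 (adjusted p = 0.910).

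Il1r1 was lower on all 8 arrays, from -0.226 on H_N 2 through a median of -0.127 to -0.0346 on H_N 3. The fitted value was -0.126 ± 0.0353 (adjusted p = 0.0369), 1.34-fold or 1.09-fold in size. Its call was lost without any 1 of 7 of the 8 arrays, with the largest adjusted p, 0.135, without H_N 2, while the log ratio then stayed between -0.131 and -0.107. The size therefore depended little on single arrays and the call did. Of the genes that passed, only Il1r1 had promoter windows in the RefSeq table of assembly GRCm38.p6, and Il7, Il27 and Il25 had none. Both windows of Il1r1 are shown, since the letters of the hypoxia response element can be looked for in them. They lie on the forward strand at chr1:40224830-40225129 and chr1:40266336-40266635, each from 250 bases before to 50 bases after an annotated start, and capitals mark matches on either strand to the hypoxia response letters ACGTG and their variant GCGTG, or to loosened NF-kappaB letters, which are GGG, any 5 bases and CC.
Il1r1 window 1: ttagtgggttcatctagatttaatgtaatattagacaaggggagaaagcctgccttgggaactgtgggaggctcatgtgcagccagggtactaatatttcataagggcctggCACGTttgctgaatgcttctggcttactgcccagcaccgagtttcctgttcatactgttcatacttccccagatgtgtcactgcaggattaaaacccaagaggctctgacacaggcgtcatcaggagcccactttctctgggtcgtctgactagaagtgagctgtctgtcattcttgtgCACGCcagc
Il1r1 window 2: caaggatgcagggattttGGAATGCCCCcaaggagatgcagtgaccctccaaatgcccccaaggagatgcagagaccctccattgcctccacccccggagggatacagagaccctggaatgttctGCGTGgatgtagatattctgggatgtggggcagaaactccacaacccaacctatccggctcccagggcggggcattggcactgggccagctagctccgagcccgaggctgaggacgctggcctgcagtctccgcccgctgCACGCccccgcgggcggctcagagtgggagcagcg
The first window held ACGTG on the reverse strand, at position -138 from the start, and the variant on the same strand at 41. The second held the variant once on each strand, at -125 and 15, and the loosened NF-kappaB letters on the reverse strand at -232. At least 1 of the hypoxia response forms occurred in 43.8% of 32851 windows of the same length and in 20 of 72 windows (27.8%) of the 59 interleukin genes with a window. These loosened letters occurred in 50.8% of all windows and 56.9% of the interleukin windows, and the STAT letters TTCNNNGAA in 8.3% and 13.9%. Letters this common are a description of the sequence, not of binding.

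**Figure D1:**
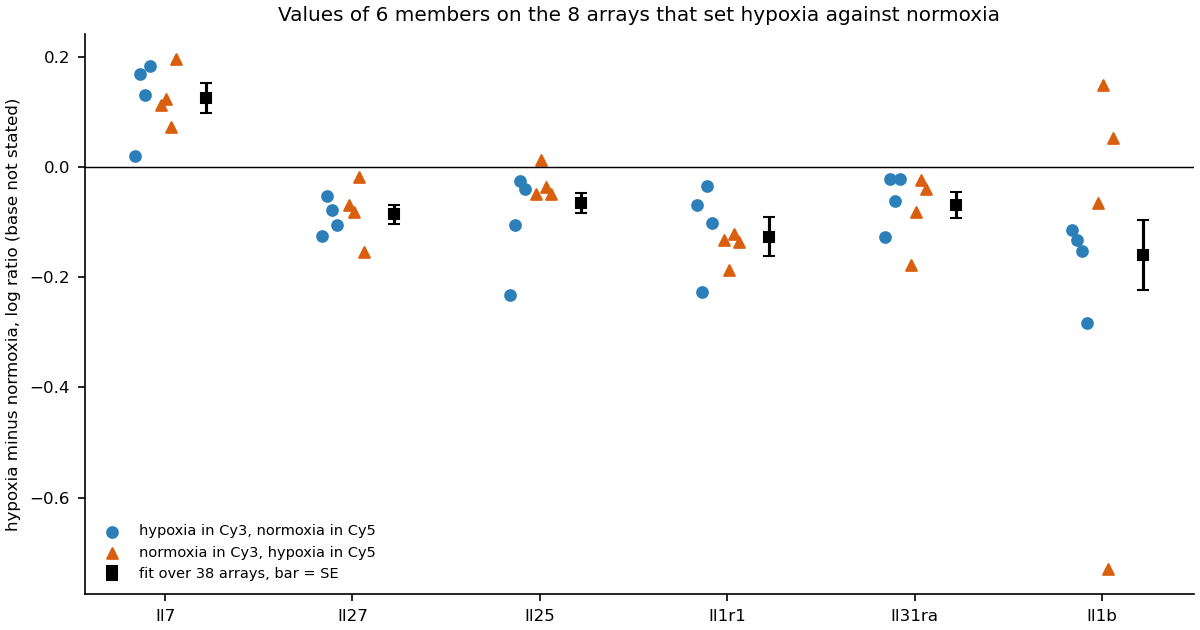
Log ratios of 6 interleukin genes (vertical axis, hypoxia minus normoxia, base not stated) on each of the 8 arrays that hold both conditions, as circles or triangles by dye orientation, with the fitted value ± SE as a black square. Il7 lies above 0 and Il27, Il1r1 and Il31ra below 0 on all 8 arrays, Il25 on 7 of 8 below, and Il1b spreads from -0.729 to 0.1499.

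With the alveolar marker mean of each array as a covariate, none of the 4 genes passed. Il7 then stood at 0.138 ± 0.0426 (adjusted p = 0.177), Il27 at -0.102 ± 0.027 (0.0965) and Il1r1 at -0.196 ± 0.053 (0.108), none smaller in size than before, while each SE was larger. Il25 was smaller, at -0.0382 ± 0.0267 (adjusted p = 0.643). Fitted on the 8 arrays alone, with the same values and fewer arrays to estimate the spread, none passed either (adjusted p from 0.0629 to 0.251).

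At an unadjusted p under 0.05, 10 of the 76 genes (13.2%) differed, 3 higher and 7 lower, against 16.8% of all entries. Beside the 4 named above these were Il15ra and Il17rd, which were higher, and Il31ra, Il4ra, Il2rb and Il1b, which were lower, none of them past the adjusted threshold. The same sign on all 8 arrays was found for 4 genes (5.26%), Il7, Il27, Il1r1 and Il31ra, against 4.02% of all entries. Of the 76 genes 20 were higher and 56 lower (73.7% lower), with a median of -0.012. Of all entries 54.8% were lower, with a median of -0.00397. This lean to lower values is a description of small differences, 66 of which had an unadjusted p of 0.05 or more.

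Among the ligands of the interleukin 1 family, Il1b, the inducible cytokine of activated myeloid cells, had the largest difference and the largest spread. Its 8 arrays ran from -0.729 on N_H 3 through a median of -0.122 to 0.1499, with 6 of 8 below 0. The fit gave -0.159 ± 0.0638 (adjusted p = 0.174), and -0.0697 ± 0.0548 (adjusted p = 0.620) without N_H 3, the array that moved it most. With the alveolar mean as a covariate Il1b stood at 0.026 ± 0.091. Neutrophil markers had their lowest mean of the 8 arrays, -0.293, on the same array N_H 3, and their highest, 0.20004, on N_H 2, where Il1b was highest. On N_H 1 these markers were nearly as low, at -0.285, while Il1b stood at -0.0643. The part of neutrophil markers in the Il1b values was not tested in this comparison.

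The other ligands of that family moved less. Il33, an alarmin released from damaged endothelium and epithelium, was below 0 on 7 of 8 arrays (-0.147 to 0.0933) and stood at -0.0463 ± 0.0359 (adjusted p = 0.572). Il1a stood at -0.0324 ± 0.0235, Il18 at -0.00486 ± 0.0266 and the antagonist Il1rn at 0.00277 ± 0.0157, each with an adjusted p above that of Il1b. The interleukin 18 binding protein Il18bp was at 0.0382 ± 0.0349. Of the 10 genes of this group 2 were higher and 8 lower, and none passed. Among the 8 receptors of the family the decoy Il1r2 was at -0.057 ± 0.0334 (adjusted p = 0.406), the accessory chain Il1rap at 0.00344 ± 0.0213, and the interleukin 18 receptor Il18r1 at 0.0732 ± 0.0399 (adjusted p = 0.360). The 8 arrays of Il18r1 were evenly divided, 4 above and 4 below 0. The 5 features of Il1rap disagreed, from -0.0813 to 0.076, so its mean hides opposite values.

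Il6, a cytokine of the acute phase response, was evenly divided between arrays. Its 8 values ran from -0.632 on N_H 3 to 0.240 with a median of 0.0108, 4 on each side of 0, and the fit gave -0.0588 ± 0.0555 (adjusted p = 0.668). The shared signalling chain Il6st stood at 0.00613 ± 0.0303, the ligand receptor Il6ra at -0.00495 ± 0.0226 and Il11, a fibroblast cytokine of the same family, at -0.00784 ± 0.0234. Il31ra, the receptor of the itch cytokine interleukin 31, was lower on all 8 arrays, from -0.177 to -0.0213 with a median of -0.0507. Its fitted value of -0.069 ± 0.0235 did not pass (adjusted p = 0.0958), except with array weights (-0.0735, adjusted p = 0.0488). Of the 8 genes of the family 7 were lower and 1 higher, with a median of -0.0342.

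Type 2 cytokines and their receptors were lower for 12 of 13 genes, with a median of -0.0392, and Il25 was the 1 that passed. Il4ra, the chain through which interleukins 4 and 13 signal, was below 0 on 7 of 8 arrays (-0.275 to 0.0928) and stood at -0.0875 ± 0.0305 (adjusted p = 0.105). The decoy receptor Il13ra2 stood at -0.149 ± 0.0829, with arrays from -0.354 to 0.135, and Il13ra1 at -0.0522 ± 0.0334. The ligands Il4 (-0.0119 ± 0.0093), Il5 (-0.0123 ± 0.0321) and Il13 (-0.0392 ± 0.0244) lay closer to 0. The lean of the group was thus one of sign, and apart from Il25 its members did not pass.

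Genes of the common gamma chain group were divided, 3 higher and 6 lower. Beside Il7, the receptor chain Il15ra, which presents interleukin 15, was above 0 on 6 of 8 arrays (-0.0778 to 0.193) and stood at 0.0859 ± 0.0324 (adjusted p = 0.143). Its ligand Il15 stood at 0.00771 ± 0.0234. Il2rb, a receptor chain of T and natural killer cells, had the opposite direction, with -0.149 ± 0.0527 (adjusted p = 0.111). Its arrays spread from -0.390 to 0.0715, 3 of them above 0, and without array H_N 3 it passed (-0.189, adjusted p = 0.0476).

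The 5 genes of the interleukin 12 family had a median of -0.0159, and the receptor chain Il12rb2 the largest value among them, 0.101 ± 0.0522 (adjusted p = 0.328), above 0 on 7 of 8 arrays. The 11 genes of the interleukin 10 family had a median of -0.0225, 9 of them lower. Il10, an inhibitory cytokine, stood at 0.022 ± 0.0436, with 6 of 8 arrays below 0 and 1 array, H_N 4, at 0.251. Its receptor chains Il10ra (-0.0683 ± 0.0591) and Il10rb (-0.0348 ± 0.0405) did not pass, and Il24 stood at -0.0248 ± 0.014.

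The interleukin 17 family was evenly divided, with 5 of 9 genes higher and a median of 0.00402. Il17rd, a receptor-like inhibitor of growth factor signalling, stood at 0.0558 ± 0.0224 (adjusted p = 0.172), with 5 of 8 arrays above 0. Its 3 features gave -0.042, 0.0435 and 0.166, so the mean of the gene rests on 1 of them. Il17ra, the shared chain of the family, stood at -0.0582 ± 0.0428 and Il17c, an epithelial ligand, at -0.0353 ± 0.0177. The ligand Il17b stood at 0.0199 ± 0.0204. Il20rb, a receptor chain shared by interleukins 20 and 24, stood at 0.0415 ± 0.0546, and Il1rapl1, a synaptic relative of the interleukin 1 receptors, at 0.0241 ± 0.0234. The remaining genes, Il16, Il34 and Il4i1, lay between -0.0122 and 0.0369.

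**Figure D2:**
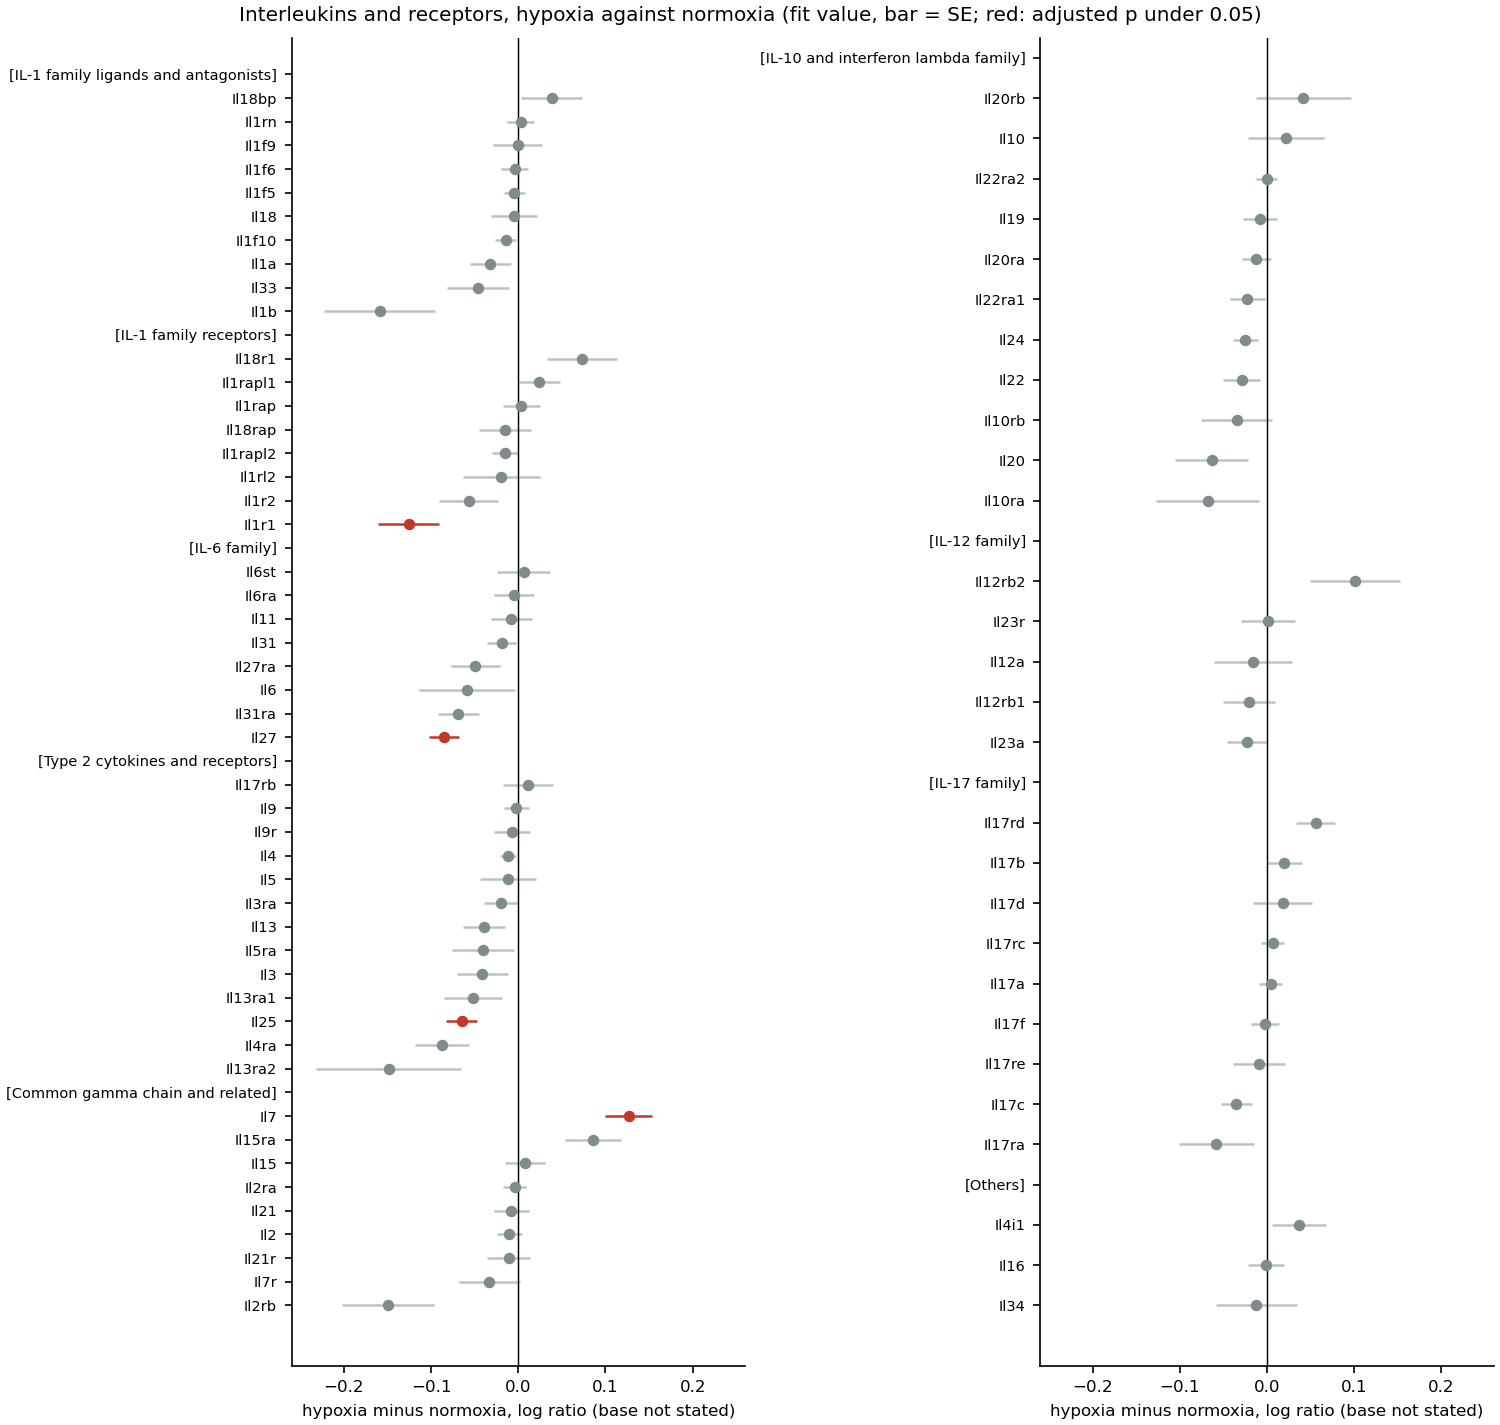
Fitted log ratio of hypoxia minus normoxia (horizontal axis, base not stated) ± SE for all 76 interleukin genes, grouped by family and ordered by value within a family. Red marks the 4 genes past an adjusted p of 0.05, of which Il7 (0.127) is higher and Il27, Il25 and Il1r1 are lower, and 56 of the 76 points lie left of 0.

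Genes of interleukin signalling without an Il symbol were described from a list of 76, of which 69 were measured. In hypoxia 7 of the 69 passed (10.1%, background 3.6%), 2 higher (2.9%, background 1.35%) and 5 lower (7.25%, background 2.25%). The list was chosen with earlier results of these data known, so these shares are a description. Of 27 signal proteins Casp4, an inflammatory caspase that acts upstream of interleukin 1 release, was the 1 that passed (-0.153 ± 0.0377, adjusted p = 0.0157). Casp1, which cleaves the interleukin 1 precursor, stood at -0.0402, and the adaptor Myd88, through which Il1r1 signals, at 0.00224. Of the 27 feedback and response genes 8 were higher and 19 lower, and 6 passed. The higher genes that passed were the macrophage chitinase-like gene Chil3 and Socs2 (0.0941 ± 0.0258, adjusted p = 0.0323). The 4 lower genes that passed were the chemokines Ccl17 and Ccl24 (-0.0732 ± 0.0204, adjusted p = 0.0357) together with Vcam1 and Sele, through which leukocytes adhere to endothelium. Ccl17 and Ccl24 are known as targets of interleukins 4 and 13, and so is Chil3, which went the other way. The feedback inhibitors of cytokine receptors Socs3 (-0.169 ± 0.0543, adjusted p = 0.0756) and Cish (-0.20004 ± 0.0666, adjusted p = 0.0868) did not pass.

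None of the 15 receptor partners and ligands passed, with 11 lower and 4 higher. The oncostatin receptor Osmr stood at -0.103 ± 0.0397 and the shared beta chain Csf2rb of interleukins 3 and 5 at -0.0706 ± 0.025, while the receptors Lifr (0.0888 ± 0.0328) and Cntfr (0.112 ± 0.0441) lay above 0, with adjusted p values from 0.112 to 0.165. The products of Osmr, Lifr and Cntfr pair with that of Il6st, and their values lay on both sides of 0. On the days after the return none of the 69 genes passed against hypoxia, and at an unadjusted p under 0.05 there were 3 on day 1 (4.35%, background 3.97%), 4 on day 3 (5.8%, background 9.22%), 8 on day 7 (11.6%, background 6.48%) and 1 on day 14 (1.45%, background 4.03%).

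**Figure D3:**
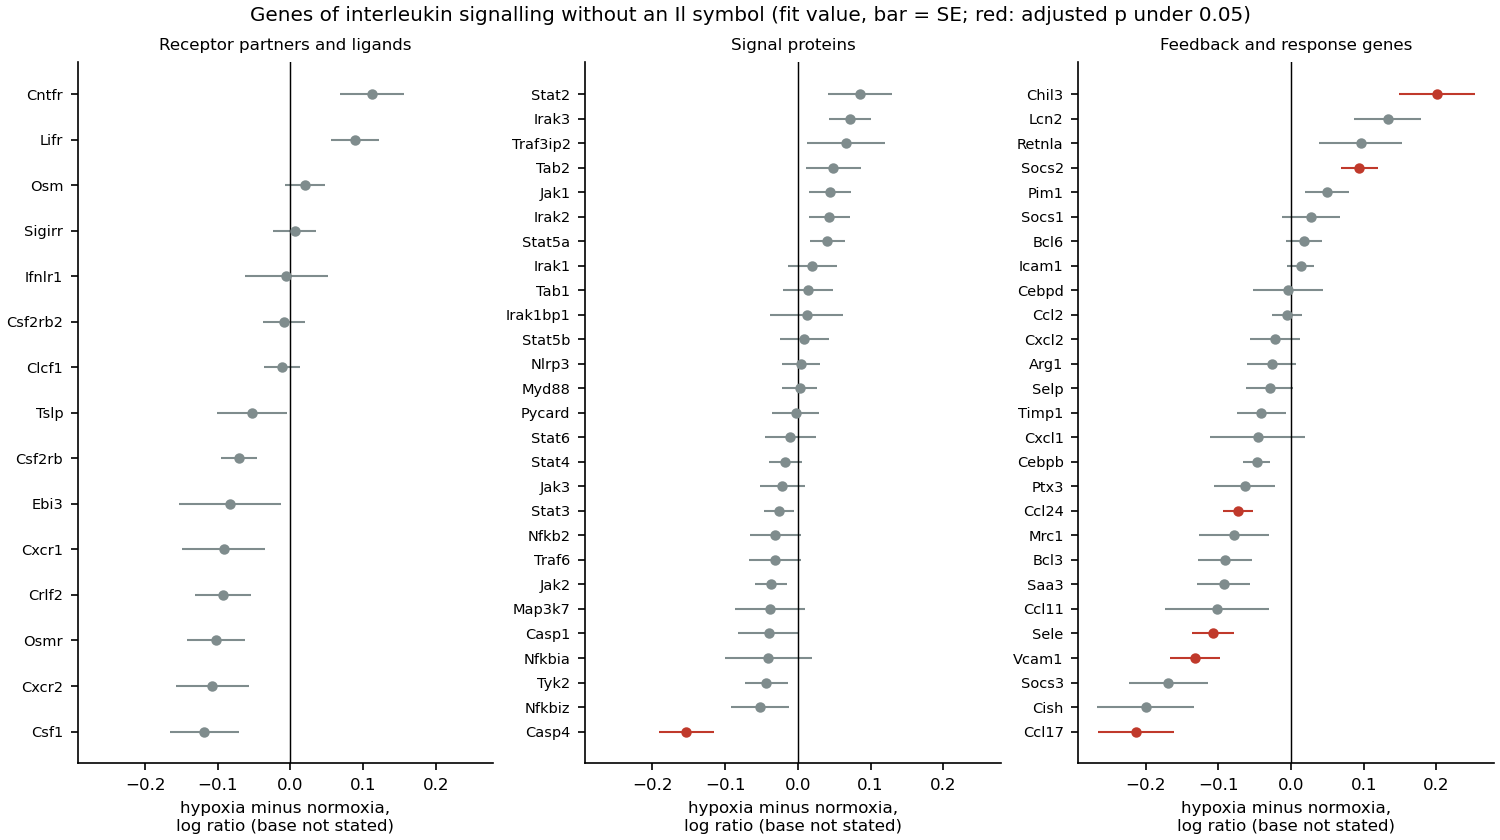
Fitted log ratio of hypoxia minus normoxia (horizontal axis, base not stated) ± SE for 69 genes of interleukin signalling without an Il symbol, in 3 panels. The 7 genes in red passed an adjusted p of 0.05, and the remaining genes with values as large, such as Socs3 (-0.169) and Cish (-0.20004), have wider SEs.

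The next question was what the interleukin genes did after the return to normal oxygen. None of the 76 passed against hypoxia on any day in limma. The background was 0% of entries on day 1, 0.013% on day 3, 0.0163% on day 7 and 0% on day 14. At an unadjusted p under 0.05, 2 genes differed on day 1 (2.63%, background 3.97%), 4 on day 3 (5.26%, background 9.22%), 2 on day 7 (2.63%, background 6.48%) and 2 on day 14 (2.63%, background 4.03%). Each share lay below that of all entries.

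In the fit over all arrays the 4 genes that differed in hypoxia stayed near their hypoxic values. Relative to hypoxia, Il27 stood at 0.00814 on day 1, 0.00922 on day 3, -0.00201 on day 7 and -0.00852 on day 14, each with an SE of 0.017 to 0.0187. A return to the normoxic value would have been a rise of 0.0853, and the 95% intervals reached at most 0.0437. Il25 stood between -0.00719 and 0.00734, with intervals up to 0.0429 where a full return would have been 0.065. For these genes, then, a full return of the fitted size lay outside the interval on all 4 days, and a partial return did not. For Il25 this depends on array H_N 1, without which its hypoxic value was -0.0413. A return of that smaller size lay inside the intervals of day 7 (up to 0.0422) and day 14 (up to 0.0429).

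Il7 stood at -0.0378 on day 1, -0.00742 on day 3, -0.0275 on day 7 and 0.0131 on day 14, with intervals that reached down to -0.0932 at most, short of the -0.127 of a full return. Single arrays, each holding a pair of animals, varied more: on the 4 direct arrays of day 7 Il7 had -0.187, -0.0444, -0.211 and 0.0382. All but the last lay below the fit over all arrays, whose interval on day 7 ended at -0.0818. The values of -0.187 and -0.211 lay beyond a full return. For day 7 the direct arrays and the fit therefore differed, and a full return is outside the interval only in the fit. Il1r1 stood at 0.0133, 0.0477, 0.0158 and 0.0153, with intervals up to 0.117 on day 3, where a full return of the fitted size would have been 0.126. On day 7 it was above 0 on 4 of 4 direct arrays, from 0.0232 to 0.116, while the fit over all arrays gave less. The normoxic values carry their own error, which the comparison of the days with normoxia takes in.

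Against normoxia, which no day met on an array, the same 4 genes had the sign they had in hypoxia, and none passed. Il7 stood at 0.0887, 0.119, 0.099 and 0.140 on days 1, 3, 7 and 14, and Il27 at -0.0771, -0.076, -0.0873 and -0.0938. Il25 stood between -0.0722 and -0.0577, and Il1r1 between -0.113 and -0.0782. The 95% intervals, which are not adjusted for the number of genes, came as near to 0 as 0.0104 for Il7 on day 1, -0.0266 for Il27 on day 3 and -0.00787 for Il25 on day 7. That of Il1r1 on day 3 ran from -0.178 to 0.0216 and held 0, so a full return of Il1r1 by day 3 lay within the error once that of normoxia was counted. These comparisons all use the same 8 normoxic animals, so the 4 days are not separate evidence. Each value also contains the fitted difference of hypoxia from normoxia, by which the 4 genes had been picked. Their kept sign and the distance of their intervals from 0 follow largely from that choice and are no further result. None of the 76 genes passed, with a background of 0.111% of entries on day 1, 0.783% on day 3, 0.0228% on day 7 and 0.0261% on day 14. At an unadjusted p under 0.05 there were 10 on day 1 (13.2%, background 11.4%), 11 on day 3 (14.5%, background 14.3%), 7 on day 7 (9.21%, background 8.5%) and 7 on day 14 (9.21%, background 8.79%).

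The smallest adjusted p of these was that of Il18r1 on day 3, at 0.189 ± 0.0556 above normoxia (adjusted p = 0.0932). Against hypoxia it was 0.115 ± 0.0388 on day 3 (adjusted p = 0.344), with 0.0113, 0.192, 0.189 and 0.0245 on the 4 direct arrays, all above 0. It stood at 0.0464, 0.034 and 0.0616 on days 1, 7 and 14. Its coreceptor chain Il18rap was at 0.0539 ± 0.0291 on day 3. The ligand Il18 was at -0.0342 ± 0.0259.

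Other genes had their extreme on day 3 as well. Il17ra was above hypoxia on 4 of 4 direct arrays, with 0.401 on H_N3 1 and 0.208, 0.124 and 0.0368 on the others, and stood at 0.122 ± 0.0416 (adjusted p = 0.345). From day 1 to day 3 it stood at 0.0871 ± 0.0448 in the joint fit and at -0.00757 on the 4 direct arrays of that step alone. Il6st stood at 0.0722 ± 0.0294 (adjusted p = 0.431), with 1 of its direct arrays, H_N3 1, at 0.414 and the others between -0.0477 and 0.0641. The largest values of Il17ra and Il6st thus came from 1 array, whose SD was 0.165 against a median array SD of 0.114. Il2rb stood at 0.102 ± 0.0513. These receptor chains were all higher on that day and none passed.

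Il9, a T cell cytokine that acts on mast cells, had the smallest p of any member in the comparisons of the days with hypoxia. On day 3 its direct arrays gave -0.0149, -0.133, -0.0646 and -0.109, all below 0, and the fit -0.0539 ± 0.0141 (adjusted p = 0.210 in limma). It stood at -0.0227 on day 1, -0.0346 on day 7 and -0.0253 on day 14, and at -0.00233 ± 0.0145 in hypoxia against normoxia. On day 7 it was below 0 on 4 of 4 direct arrays and on day 14 on 3 of 3, which share 1 dye orientation. Its receptor Il9r stayed between -0.0281 and 0.00196. Il33 was below hypoxia on all 4 days as well (-0.038, -0.0656, -0.0592 and -0.0346) without passing, and on day 3 on 4 of 4 direct arrays.

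On day 1 the smallest p values were those of Il17rd (-0.0594 ± 0.0224) and Il34, a ligand of the macrophage growth factor receptor (0.102 ± 0.0463), each with an adjusted p of 1.00. The direct arrays of Il34 gave 0.0244, 0.0289, -0.0792 and 0.201, on both sides of 0. Il17rd was below 0 on 4 of 4, from -0.154 to -0.00192. On day 14 it was again the gene with the smallest p, at -0.071 ± 0.0239 (adjusted p = 1.00), with 3 of 3 direct arrays below 0, 1 of them at -0.00132. Those arrays all held hypoxic RNA in Cy3, so their signs share the dye effect. Of the 76 genes 22 had the same sign on all 3 of them, 6 higher and 16 lower. The share over all entries was not counted for this comparison, and equal signs on so few arrays are common by chance. This count is therefore no result about the interleukin genes. Most of the difference of Il17rd on days 1 and 14 came from 1 feature, which stood at -0.1197 on day 1 and -0.145 on day 14, while the others lay between -0.062 and -0.00644. Il17rb (0.0576), Il6st (0.0553) and Il7r (0.0575) came after Il34 among the higher genes on day 1, and Il17c (-0.0332) and Il17f (-0.0258) followed among the lower ones.

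On day 7 Il1rapl1 stood at -0.0568 ± 0.023 against hypoxia (adjusted p = 0.691), on 4 of 4 direct arrays. Il1b stood at 0.121 ± 0.0626 (adjusted p = 0.781), with -0.0788, 0.255, 0.234 and 0.377 on the direct arrays, 3 of 4 above 0. Il16, a chemoattractant for CD4 cells, stood at 0.0396 ± 0.02, Il23r at 0.0577 ± 0.0304 and Il15 at -0.0379 ± 0.023. On day 14 Il22ra1, the epithelial receptor of interleukin 22, stood at 0.0445 ± 0.0216 (adjusted p = 1.00), above 0 on 3 of 3 arrays, which share 1 dye orientation. Il17re, which receives interleukin 17C, stood at -0.0427 ± 0.0313 and the related chain Il17rc at -0.0186 ± 0.0143 on that day. The alveolar marker mean stood at -0.035 ± 0.0176 against hypoxia on that day and at -0.0532 ± 0.0162 on day 7, and its part in these values was not tested gene by gene.

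A further set of members, chosen for their place in the pathways, did not pass on any day. Over the 4 days Il1a ranged from -0.0232 to -0.00372, Il1rn from 0.00228 to 0.0105, Il18bp from -0.0116 to 0.0421 and Il1r2 from -0.000453 to 0.0369. Il6 ranged from 0.00739 to 0.0553, Il6ra from -0.0274 to -0.00442 and Il11 from -0.00918 to 0.00114. Il4 ranged from -0.0118 to 0.000994, Il5 from -0.0161 to 0.0214, Il4ra from -0.0212 to 0.015 and Il10 from -0.00774 to 0.0343. The receptor chain Il15ra, which was among the higher genes in hypoxia, stood at -0.0435, 0.014, 0.0121 and -0.0444 on days 1, 3, 7 and 14. Il13ra1 ranged from -0.0334 to 0.0149, Il10ra from -0.0402 to 0.0353, Il10rb from -0.0497 to -0.00629 and Il1rap from -0.00337 to 0.0305. Il7r was above hypoxia on all 4 days, from 0.0299 to 0.0636.

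**Figure D4:**
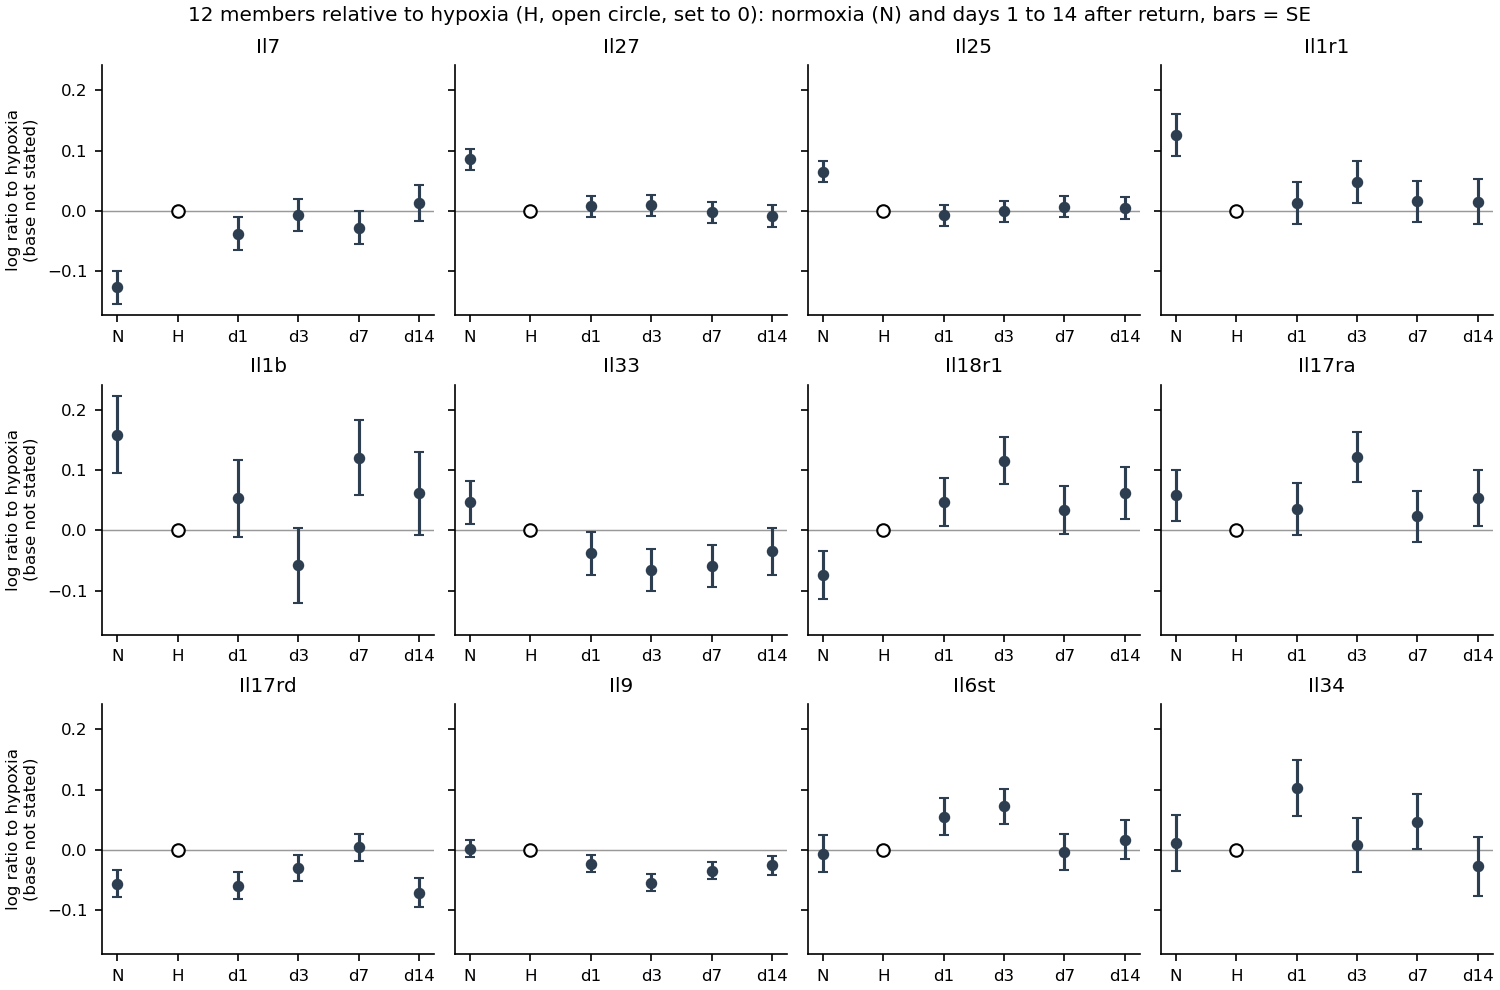
Fitted log ratio of 12 interleukin genes relative to hypoxia (vertical axis, base not stated; hypoxia, the open circle, is set to 0) in normoxia (N) and after 1, 3, 7 and 14 days of normal oxygen, with SE bars. Il7, Il27, Il25 and Il1r1 differ from hypoxia in N and lie near 0 on the days, while Il18r1, Il17ra and Il9 have their extreme on day 3 (0.115, 0.122 and -0.0539).

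Between the days none of the 76 genes passed in limma. The background was 0% from day 1 to day 3, 0.00979% from day 3 to day 7, 0% from day 7 to day 14 and 0% from day 1 to day 14. At an unadjusted p under 0.05 there were 2 genes (background 4.63%), 6 (background 10.2%), 2 (background 3.66%) and 1 (background 2.79%). From day 3 to day 7 Il1b stood at 0.178 ± 0.0665 (adjusted p = 0.361) and Il13, a type 2 cytokine, at 0.0692 ± 0.0255 (adjusted p = 0.358), while Il6st (-0.0752) and Il1rapl1 (-0.059) were lower. The direct arrays of Il1b for that step gave 0.203, 0.627, 0.0299 and 0.0163. The value of 0.627 came from N3_N7 2, which had the largest SD of the 38 arrays (0.192). From day 7 to day 14 Il1rapl1 was higher by 0.0915 ± 0.0252 (adjusted p = 1.00 in limma) and Il17rd lower (-0.0752 ± 0.024). From day 1 to day 3 Il3, a growth factor of mast cells, stood at 0.0799 ± 0.031. Its 4 direct arrays ran from -0.0441 to 0.315, with 2 above and 2 below 0. From day 1 to day 14 Il34 stood at -0.129 ± 0.054. The other leading genes of the last step and of the whole interval were Il9r (0.03) and the lymphocyte receptor Il21r (-0.0497) from day 7 to day 14, and Il22 (0.0409), Il17f (0.0346) and Il17a (-0.0232) from day 1 to day 14.

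Several genes have many features, whose agreement within an array measures the noise of the spots and not that of labelling, hybridization or animals. Il1b, Il6, Il10, Il18 and Il4 have 10 features each and Il2 has 11, which share 1 accession per gene in the annotation. Whether they are copies of 1 probe sequence is not known here. Within an array the 10 features of Il1b differed by an SD of 0.0231 (median over 38 arrays), while their mean had an SD of 0.209 between arrays. All 10 were lower in hypoxia than in normoxia, from -0.172 to -0.146. For Il6 the SDs were 0.0297 and 0.157, for Il10 0.0296 and 0.1201 and for Il18 0.0288 and 0.074. For Il4 the order was the other way round, 0.0323 within an array and 0.0182 between arrays. Spots of an array share 1 pair of RNA samples, so these SDs do not show how well a difference between arrays would repeat.

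The genes with different features showed more disagreement. The features of Il1rap had an SD within an array of 0.132 against 0.0582 between arrays, and those of Il17rd 0.108 against 0.0761. The same held for Il7, the gene called higher in hypoxia, with 0.110 against 0.0974, and in all for 8 of the 34 genes with several features. Over the 38 arrays Il13ra2 varied most (SD 0.245), ahead of Il1b, Il10ra (0.169), Il2rb (0.168) and Il6, and Il4 least. The median SD of the 76 genes, 0.0758, was below that of all named genes, 0.084, and 33 of the 76 lay above the latter. A log ratio varies between arrays with the animals, the conditions and the measurement alike, so this spread ranks genes by none of them alone.

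**Figure D5:**
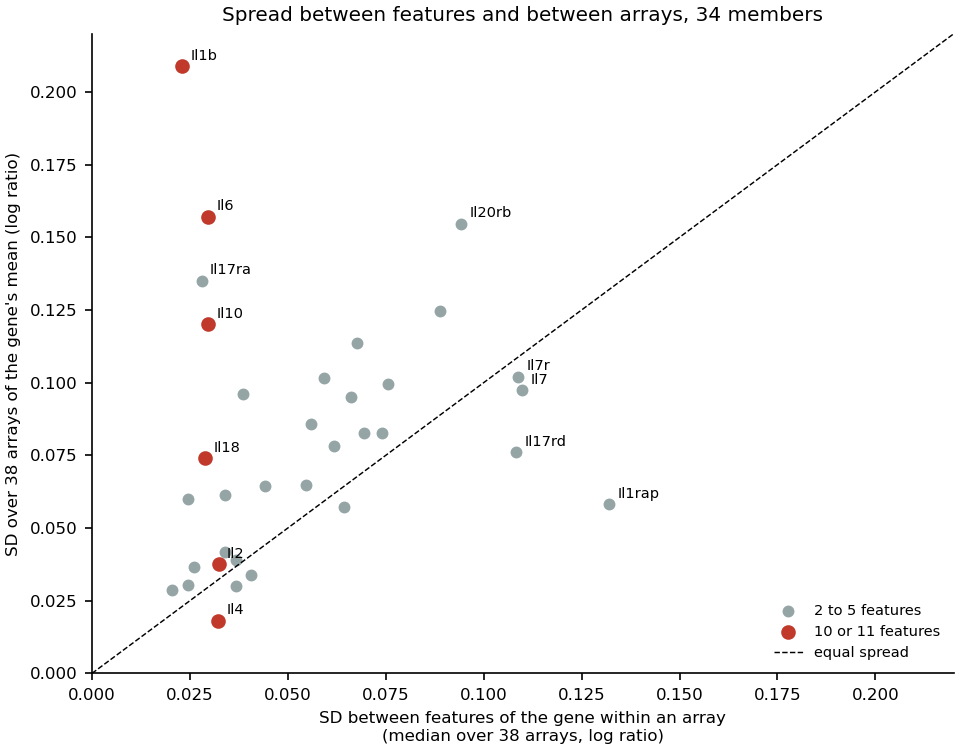
Spread of 34 interleukin genes with several features: SD between the features of a gene within an array (horizontal axis, median over 38 arrays) against SD over the 38 arrays of the mean of the gene (vertical axis), both in log ratio units, with equal spread as a dashed line. Il1b (0.0231 and 0.209) and Il6 (0.0297 and 0.157) lie far above the line, and 8 genes lie below it, among them Il4, Il17rd, Il1rap and Il7 (0.110 and 0.0974).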

How the data were processed

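The deposited log ratios hold 1 value for each feature and array, as the authors made them. According to the submitters' processing notes limma was used, without a version. Their background correction, normalization and log base (log10 or log2) are not stated in the sources used here, so these are values of another kind. No batch could be tested, because scanner files, brightness and scan dates were not used here.

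Features with a missing value (2 of 45220) were dropped. By platform annotation, often dated, 33653 features carried 1 symbol, 56 several and 11511 none. Features of a gene were averaged, giving 30653 entries. A dye term and 5 condition terms were fitted with limma 3.58.1 in R 4.3.3 (32 residual degrees of freedom, 13 contrasts, two-sided), with Benjamini-Hochberg adjustment over all entries at 0.05. Single-array values keep the dye effect. Intervals are 95% intervals of the fit. Python 3.11.15, scipy 1.17.1 and matplotlib 3.10.9 were used for the rest.

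Named genes were those past the threshold, the 10 smallest p in each direction for hypoxia minus normoxia, 4 for days minus hypoxia, 2 otherwise, reference members, and the leading pathway genes. Members, lists and tests were chosen with earlier results of these data known. Replicate numbers did not pair arrays: residuals correlated with a median of -0.016 for equal and -0.0244 for unequal numbers. Alternatives changed the dye term, array scale or centring, the treatment of features, an SD filter, moderation, weights, a replicate block, the arrays used and an alveolar covariate. The steps were tested on simulated data.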

Additional observations from a re-analysis of the deposited data

Results flagged for a closer look

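Il17b, a ligand of the interleukin 17 family, stood at 0.167 on array N_H 2 in hypoxia against normoxia, far above the next of the 8 arrays at 0.0477. The gene did not pass in that comparison (0.0199 ± 0.0204), and without this array its value was -0.00217. Of 44 sets of arrays checked for a value far from the others, this was the 1 found. Chance gives about 1 in 20 sets, so 1 found among 44 is no more than chance gives.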

How the results depend on the processing

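In hypoxia against normoxia 4 interleukin genes passed, and 4 or 5 did in 9 of the 12 other settings, among them the fit with a replicate block (4). The count was 2 with the filter on low SD, which removes Il27 and Il25 before the test, and 0 both on the direct arrays alone, which leave fewer arrays to estimate the spread, and with the alveolar mean as a covariate, where the cause was not tested. With each of the 38 arrays left out in turn it ran from 2 (without H_N 1, H_N 2 or N_H 3) to 5 (without H_N 3). Il27 and Il7 passed in 38 of these 38 fits, Il25 in 35 and Il1r1 in 31. The replicate block changed no count of genes past the threshold. On the days and between them the count was 0 in each setting that gave a value, and comparisons of the days with normoxia have no direct arrays.

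Values that changed sign did so among genes that had not passed. With the alveolar mean as a covariate, hypoxia against normoxia gave 0.026 for Il1b, -0.0212 for Il18bp, 0.000973 for Il17c and 0.0205 for Il24. On the direct arrays alone Il9 stood at 0.00762 on day 1, Il18rap at -0.0188 on day 7, Il1rapl1 at -0.011 on day 14 and Il17ra at -0.00757 from day 1 to day 3. Il17rc on day 14 was 0.00608 with the feature of largest SD. In hypoxia against normoxia Il17b ran from -0.00217 (without N_H 2) to 0.0288 with 1 array left out, and Il20rb from -0.025 (without H_N 2) to 0.0709. Unless stated, the cause was not tested. Of 4071 values of named genes under other settings, 4039 kept direction and side of the threshold.

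Spot brightness was not used here, so a gene below background cannot be told from one that did not differ.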

Other observations

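Il1b and Il6 were set beside the marker lists across the 38 arrays, a choice made after their spread had been seen, over 27 relations with 100000 permutations each. Il1b correlated with the mean of 5 neutrophil markers with Pearson's r = 0.455 (permutation p = 0.00327, adjusted p = 0.0294) and Spearman's rho = 0.453 (permutation p = 0.00474, adjusted p = 0.064), and with r = 0.473 without the 2 farthest arrays. Marker by marker, r was 0.502 for Retnlg, 0.454 for S100a9 and 0.409 for S100a8, but 0.137 for Csf3r and -0.034 for Mmp9, so 3 of the 5 carry the mean. Il1b correlated inversely with alveolar type 1 markers, with r = -0.547 (permutation p = 0.0003, adjusted p = 0.0081) and rho = -0.456 (permutation p = 0.00446, adjusted p = 0.064), and r = -0.351 without the 2 farthest arrays. For alveolar type 2 markers r was -0.496 (permutation p = 0.00157, adjusted p = 0.0212), rho -0.285 (permutation p = 0.0831, adjusted p = 0.415), and r -0.215 without the 2 farthest arrays. Il1b and Il6 had r = 0.525 (permutation p = 0.00435, adjusted p = 0.0294), rho = 0.247 (permutation p = 0.135, adjusted p = 0.52), and r = 0.238 without the 2 farthest arrays, so this relation rests on them. The arrays share conditions and dye orientation, and these relations were not computed within single conditions, which have at most 8 arrays. None of the 27 passed by rank after adjustment.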
